A study of Mus musculus with 2 samples.

Results

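Dendritic cells were rare in both glioblastomas: 20 of 12854 cells in tumour 1 and 78 of 15555 in tumour 2 met a fixed set of gates, 98 of 28409 in all. The exact 95% binomial interval of the share was 0.0951% to 0.240% around 0.156% in tumour 1 and 0.397% to 0.625% around 0.501% in tumour 2, for counting error only. A cell was kept as dendritic when H2-Aa, H2-Ab1, H2-Eb1 and Cd74, which encode the class II molecules and their chaperone, had at least 100 unique molecular identifiers (UMIs, tags that count each captured transcript once) per 10000 UMIs of mouse genes. C1qa, C1qb and C1qc, complement genes of macrophages, had to stay under 5 per 10000, and Flt3, Zbtb46, Xcr1, Cd209a and Ccr7 had to give at least 2 UMIs together. Cells with a UMI of the T-cell genes Cd3d, Cd3e and Cd3g or of the B-cell gene Cd79a, or with 20 or more EGFP UMIs per 10000, were left out. The cells were thus chosen by the measured levels of these genes, which are given as a description, without a test.

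Both libraries belong to 1 group, NPCTKO, and each was made from a single GBM of a C57BL/6 mouse aged 3 months. In this model, progenitors of the embryonic neocortex were electroporated in utero with piggyBac plasmids that carried Cas9, luciferase, a fluorescent label and guides that target tumour suppressors such as Trp53 and Nf1, so every tumour carries the same engineered lesions and there is no untreated tissue. According to the methods of the study, 1 tumour grew in a Tek-Cre;Ai14 host and 1 in a Tbx18 CreERT2/+;Ai14 host, whose tdTomato reporter marks different lineages. No label ties a library to its host, so host, tumour and library cannot be told apart.

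Dendritic cells take up antigen, load it on class II and class I molecules and present it to T cells. Conventional type 1 cells (cDC1) carry the chemokine receptor Xcr1 and the receptor for dead cells Clec9a and are known for presenting the antigens of other cells to CD8 T cells, while type 2 cells (cDC2), of which Cd209a marks a part, mostly address CD4 T cells. On maturation either type turns on Ccr7, the receptor that guides cells to draining lymph nodes, together with Fscn1, Ccl22 and costimulatory ligands, and in tumours such mature cells also carry inhibitory ligands. Normal brain tissue holds few dendritic cells, which sit mainly in the meninges and the choroid plexus.

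The dendritic cells held 301491 UMIs of mouse genes in tumour 1 and 1511214 in tumour 2. Their median depth was 15135.5 UMIs (range 6035 to 28208) and 16612 UMIs (4830 to 113470) per cell, with medians of 3018 and 3097 genes. For comparison, all cells that passed the filters had medians of 18741 and 13977 UMIs. No dendritic cell carried a barcode that occurred in the other library, although 51 barcodes were present in both. EGFP, the tumour label, gave UMIs in every dendritic cell, at 604 and 814 per 1000000 against 11117 and 12360 in the cells above the EGFP gate and 649 and 588 in macrophages.

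The gates cut through a continuous range. Class II genes had a median of 374 (tumour 1) and 522 (tumour 2) UMIs per 10000 among members, the lowest inside lay at 117 and 107, and the highest cell that failed on class II alone lay at 83.0 and 88.3. Of the C1q genes, the highest member had 4.97 and 4.91 and the lowest excluded cell 6.18 and 5.29. Exactly 2 UMIs of the dendritic genes were found in 2 and 14 members. On these genes alone 21 and 320 otherwise fitting cells failed, of which 4 and 27 had exactly 1 UMI, so the share of dendritic cells depends on this gate. The EGFP gate was closest in tumour 1, with 18.4 inside and 20.1 outside, and 7 and 4 cells failed it alone.

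The dendritic cells were compared with macrophages and monocytes of the same tumours, which were gated in the same way. C1q macrophages were the 941 and 1198 cells with at least 20 C1q UMIs per 10000. Monocytes were the 11 and 393 cells with Ly6c2, Chil3 and Plac8 at 10 or more and Lyz2 at 5 or more UMIs per 10000. They also had S100a8 and S100a9 under 100 and the C1q genes under 5 UMIs per 10000, and at most 1 UMI of the dendritic genes. Flt3, the growth factor receptor of the dendritic lineage, stood at 76.3 and 33.8 UMIs per 1000000 mouse UMIs of the class (counts per 1000000, CPM) in dendritic cells of tumours 1 and 2 and at 0.218 and 0.0368 CPM in macrophages. Zbtb46, a transcription factor of conventional dendritic cells, stood at 33.2 and 13.9 CPM against 1.31 and 0.994 CPM. Cd74 stood at 16223 and 21788 CPM against 11319 and 9647 CPM in macrophages, a far smaller step.

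Cells with Xcr1 were the most frequent kind in tumour 1 and cells with Ccr7 in tumour 2. In tumour 1, 10 of 20 dendritic cells had UMIs of Xcr1 and of neither other subset gene (50%, exact 95% interval 27.2 to 72.8), 5 had only Ccr7 (25%, 8.66 to 49.1) and 2 only Cd209a (10%, 1.23 to 31.7). In tumour 2, 16 of 78 had only Xcr1 (20.5%, 12.2 to 31.2), 40 only Ccr7 (51.3%, 39.7 to 62.8) and 6 only Cd209a (7.69%, 2.88 to 16.0). More than 1 of these genes was found in 1 cell of tumour 1 and in 14 of tumour 2, of which 9 had Xcr1 with Ccr7, 4 Cd209a with Ccr7 and 1 all of them. The other 2 cells of each tumour were members through Flt3 or Zbtb46. The intervals of the Xcr1 share and of the Ccr7 share overlap between tumours, and no test was made, since each tumour is 1 library.

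**Figure D1:**
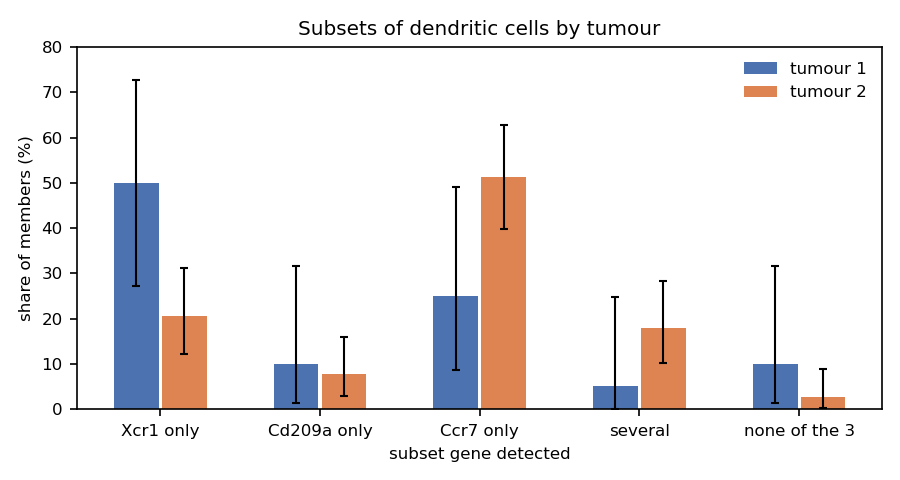
Bars give the percent of dendritic cells in each tumour (tumour 1 blue, 20 cells; tumour 2 orange, 78 cells) that had UMIs of Xcr1 only, Cd209a only, Ccr7 only, several of these genes or none, and the lines are exact 95% binomial intervals. Xcr1 leads in tumour 1 at 50% and Ccr7 in tumour 2 at 51.3%, with overlapping intervals.

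Detection of a subset gene depends on depth. After every cell was thinned to 2000 UMIs, only Xcr1 was seen in 35.0% and 10.3% of dendritic cells, only Ccr7 in 25.0% and 39.7%, and none of the 3 genes in 30.0% and 38.5%. A requirement of at least 2 UMIs left the Ccr7 share of tumour 2 at 46.2% and its Xcr1 share at 14.1% (7.26 to 23.8), an interval that no longer overlapped that of tumour 1 (27.2 to 72.8 around 50%). Free RNA could add UMIs of these genes. Xcr1 gave a UMI in 0.956% and 1.17% of macrophages (median depth 17540 and 20178.5 UMIs), Cd209a in none of 941 and 0.0835% of 1198, and Ccr7 in 1.28% and 5.01%. The gates themselves raised these shares in dendritic cells, so no comparison was drawn from them. T cells, which use Ccr7 themselves, had a Ccr7 UMI in 26.4% and 51.3% of 265 and 464 cells.

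Several genes of the cDC1 list that were not used to choose the cells stood higher in Xcr1 cells than in Ccr7 cells. Clec9a stood at 289 and 95.8 CPM in the Xcr1 cells of tumours 1 and 2 and at 0 and 13.3 CPM in the Ccr7 cells. Naaa, a lysosomal amidase, stood at 466 and 380 CPM against 0 and 31.1 CPM, and Ppt1, a lysosomal thioesterase, at 950 and 747 CPM against 33.3 and 60.7 CPM. Rab7b, a small GTPase of late endosomes, stood at 153 and 132 CPM in Xcr1 cells and at 0 and 7.41 CPM in Ccr7 cells. These genes were thus higher in Xcr1 cells in both tumours. Naaa, Ppt1 and Rab7b were the only 3 of 1896 genes with enough UMIs (0.158%) that were 4-fold or more higher than in Ccr7 cells in both tumours, with 20 CPM added to each level. Just outside lay Clec9a, Itgae, the integrin CD103, at 360 and 130 CPM against 16.7 and 26.7 CPM, and Psap, a lysosomal activator protein, at 2633 and 1522 CPM against 366 and 384 CPM. Irf8, the transcription factor that cDC1 depend on, stood at 2155 and 845 CPM in Xcr1 cells, 0 and 365 CPM in Cd209a cells and 649 and 579 CPM in Ccr7 cells. Cst3, which encodes the protease inhibitor cystatin C, stood at 34901 and 30305 CPM in Xcr1 cells against 9391 and 12665 CPM in Ccr7 cells.

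The Cd209a cells were only 2 and 6, so their levels rest on few molecules. Clec10a, a lectin of cDC2, stood at 530 and 182 CPM in them and at 5.90 and 5.64 CPM in Xcr1 cells. Mgl2, a related lectin, stood at 326 and 48.6 CPM against 5.90 and 8.45 CPM, and S100a4, a calcium-binding protein, at 1876 and 2503 CPM against 0 and 101 CPM. Both lectins and S100a4 were thus higher than in Xcr1 cells in both tumours. Cd7, a surface glycoprotein, was found at 389 CPM in the Cd209a cells of tumour 2 and not in tumour 1, where a count of 0 in the 2 Cd209a cells allows up to 122 CPM. Ltb, a lymphotoxin subunit that is also on the cDC2 list, was instead at 250 and 133 CPM in the Ccr7 cells and at 0 CPM in the Xcr1 cells of both tumours.

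As a group, the Ccr7 cells stood higher than the Xcr1 cells on many genes of the mature list. In tumour 1 the Ccr7 cells held 60059 UMIs in 5 cells, of which 27676 came from 1 cell that also carried glioma transcripts. Fscn1, an actin-bundling protein of dendrites, stood at 383 and 315 CPM in the Ccr7 cells and at 0 and 22.5 CPM in the Xcr1 cells. Ccl22, a ligand that draws regulatory T cells, stood at 99.9 and 153 CPM against 0 and 5.64 CPM, and Ccl17, a ligand of the same receptor, at 250 and 197 CPM against 11.8 and 8.45 CPM. All 3 were higher in the Ccr7 cells of both tumours, although in tumour 1 a single cell gave 21 of 23 Fscn1 UMIs, 1 gave 12 of 15 Ccl17 UMIs and 1 gave 4 of 6 Ccl22 UMIs. Cd40, a receptor through which T cells license dendritic cells, stood at 316 and 167 CPM against 35.4 and 16.9 CPM, and Relb, a subunit of the NF-kB transcription factor, at 283 and 160 CPM against 29.5 and 19.7 CPM. Il4i1, an enzyme that degrades aromatic amino acids, stood at 200 and 194 CPM against 0 and 2.82 CPM, and Socs2, a brake on cytokine signalling, at 183 and 104 CPM against 0 and 2.82 CPM. In all, 35 of 1874 genes (1.87%) were 4-fold or more higher in Ccr7 than in Xcr1 cells in both tumours. The chemokine Ccl5 led them at 1465 and 890 CPM against 5.90 and 11.3 CPM, with 67 of its 88 UMIs of tumour 1 from 1 cell, and Samsn1, Nfkbia, Cdkn1a, Tmem123, Tbc1d4 and the cDC1 list member Cxcl9 were among them. Traf1, an adaptor of the TNF receptor family, fell just short at 516 and 449 CPM against 23.6 and 101 CPM.

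**Figure D2:**
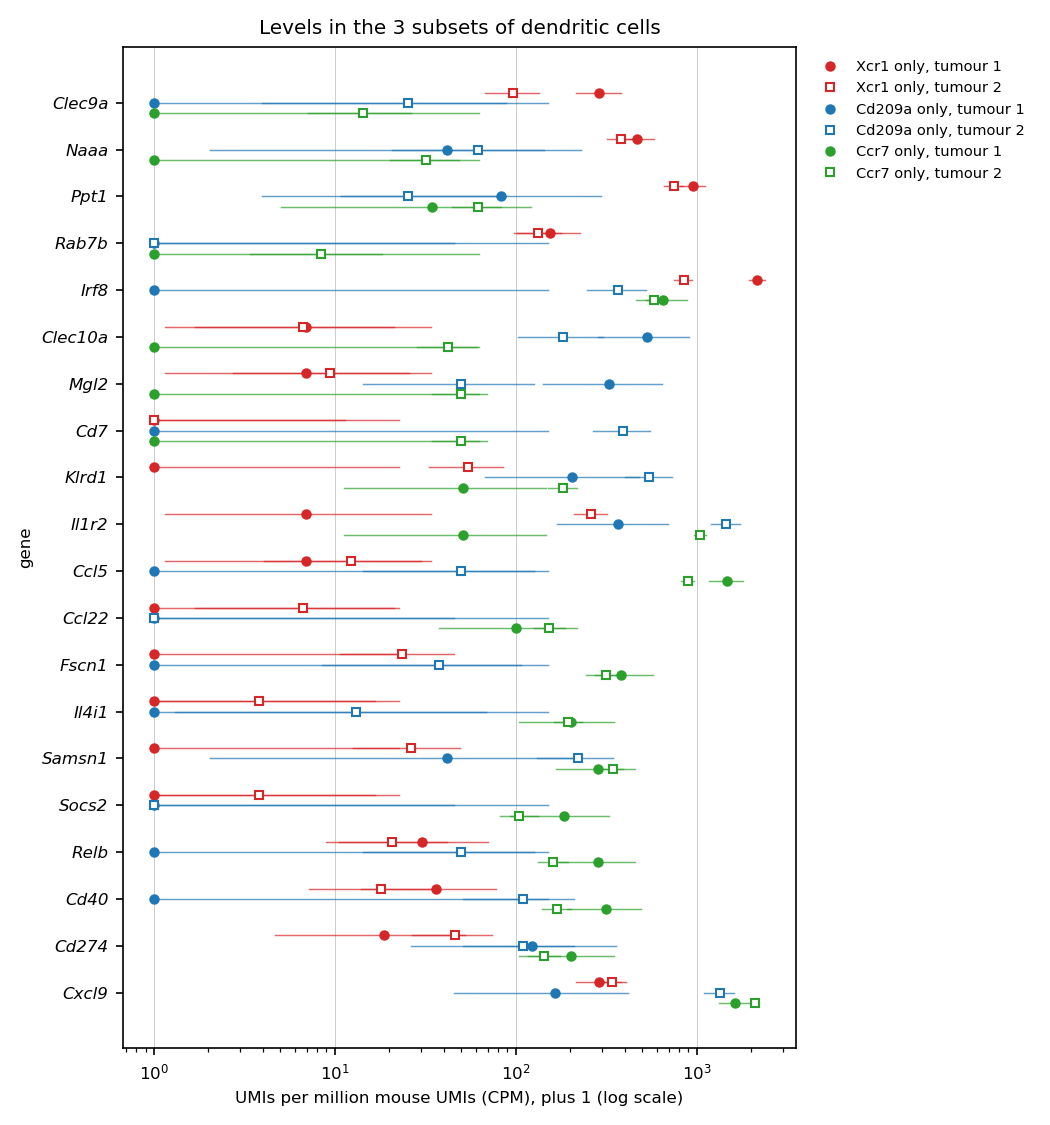
The plot shows 20 genes in the cells with Xcr1 only (red), Cd209a only (blue) and Ccr7 only (green), on a logarithmic axis of CPM plus 1, with filled circles for tumour 1, open squares for tumour 2 and lines for exact 95% Poisson intervals. Clec9a, Naaa and Ppt1 are highest in Xcr1 cells, Clec10a in Cd209a cells and Fscn1 and Ccl22 in Ccr7 cells in both tumours, and the intervals of the 2 Cd209a cells of tumour 1 are wide.

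Summed over the whole mature list of 33 genes, the Ccr7 cells stood at 7543 and 5382 CPM, the Xcr1 cells at 762 and 1155 CPM and the Cd209a cells at 1020 and 2151 CPM. The log2 ratio of Ccr7 to Xcr1 cells was 3.31 in tumour 1 and 2.22 in tumour 2 (mean 2.76 ± 0.77, SD, n = 2), and that of Ccr7 to Cd209a cells 2.89 and 1.32 (mean 2.11 ± 1.11). For the cDC1 list the Xcr1 cells exceeded the Cd209a cells by 2.93 and 0.98 on the log2 scale (mean 1.95 ± 1.38). All 3 differences had the same sign in both tumours, and no test was made, since at least 1 subset in each had fewer than 10 cells in a tumour. The cDC1 sum of tumour 2 was close in Xcr1 and Ccr7 cells, at 3920 and 3473 CPM, unlike in tumour 1, at 7149 and 3047 CPM. In the Ccr7 cells, Cxcl9, an interferon-induced chemokine, made up 1632 and 2106 CPM. For the cDC2 list, Cd209a cells stood at 4691 and 4994 CPM, Ccr7 cells at 2481 and 4057 CPM and Xcr1 cells at 82.6 and 682 CPM. Without the cells that carried transcripts of another lineage, the mature list stood at 8832 and 5640 CPM in Ccr7 cells and at 762 and 1217 CPM in Xcr1 cells.

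Maturation was graded among single cells. In Ccr7 cells, the mature list had a median of 63.7 (range 29.5 to 194) UMIs per 10000 in tumour 1 and 40.5 (8.94 to 201) in tumour 2. In Xcr1 cells it had a median of 6.79 (4.60 to 13.8) and 10.6 (7.12 to 20.3). The ranges of the subsets did not overlap in tumour 1 and overlapped in tumour 2. At least 50 UMIs per 10000 of the list were found in 4 of 5 and 18 of 40 Ccr7 cells, in 1 of 1 and 3 of 14 cells with several subset genes, and in no other dendritic cell. The remaining 22 Ccr7 cells of tumour 2 thus had the receptor with lower levels of the list. The cDC1 list had a median of 67.6 (42.1 to 90.0) and 46.7 (5.55 to 86.2) in Xcr1 cells.

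**Figure D3:**
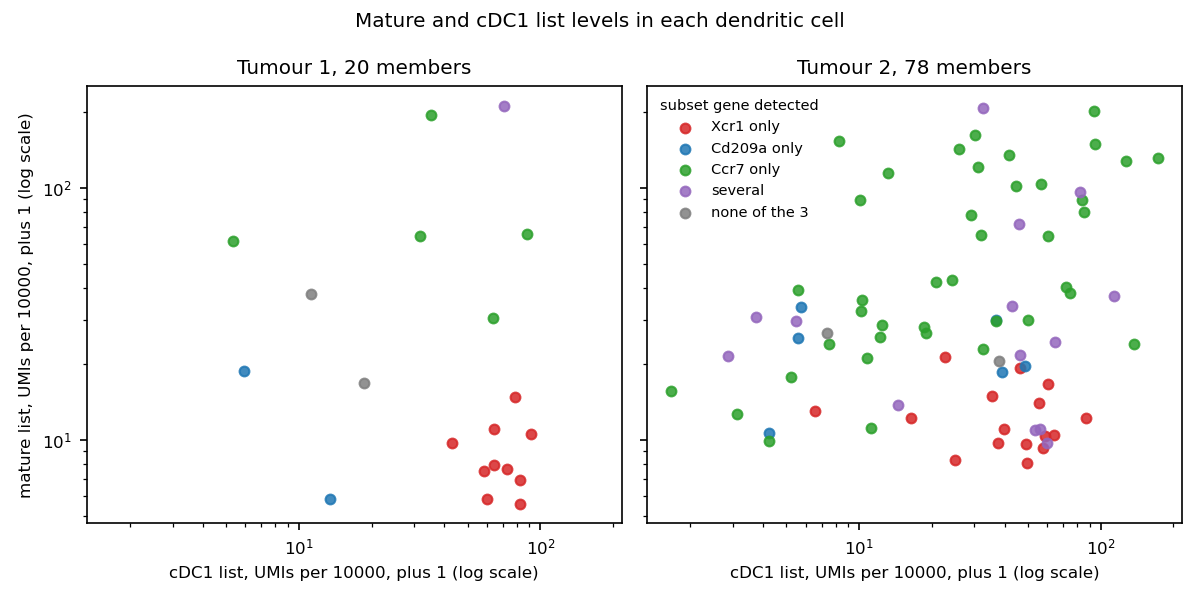
Each point is 1 dendritic cell, with the sum of the cDC1 list on the horizontal and that of the mature list on the vertical axis, both as UMIs per 10000 plus 1 on logarithmic axes, in 1 panel per tumour and coloured by subset. Xcr1 cells lie low on the mature axis (highest 13.8 in tumour 1 and 20.3 in tumour 2), and Ccr7 cells reach 194 and 201.

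Il12b, the subunit shared by the cytokines IL-12 and IL-23 that dendritic cells send to T cells, was concentrated in very few cells. It was detected in 2 of 20 and 16 of 78 dendritic cells. In tumour 1, 33 of its 34 UMIs came from 1 cell with both Xcr1 and Ccr7, and in tumour 2, 193 of 285 UMIs came from 1 cell with several subset genes. The Ccr7 cells of tumour 2 held 49 Il12b UMIs in 10 of 40 cells, and the Xcr1 cells held 1 UMI. Macrophages had an Il12b UMI in 6.80% of 941 and 7.01% of 1198 cells. Ccl17 was likewise uneven in tumour 1, where 52 of 73 UMIs came from 1 cell without a subset gene, whereas 19 cells shared its 248 UMIs in tumour 2.

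Of 11363 genes tested outside the gates, 426 (3.75%) were higher and 479 (4.22%) lower in dendritic cells than in C1q macrophages (7.96% in either direction), by edgeR's quasi-likelihood test on counts summed per class and tumour, at an adjusted p under 0.05. Among the largest differences upwards were genes of the dendritic lists such as Itgae and Btla, beside genes on none of these lists such as Cldn1. Macrophage and microglia genes such as C3ar1 and P2ry12 were among the largest differences downwards. With 2 animals, these p-values rest on the spread left after the shift shared by all classes of a tumour was taken out. That spread was estimated over 5 classes of cells, with information shared across genes. The tumour was a block in the fit, since the classes share an animal, and without the block 143 genes were higher and 152 lower. By DESeq2, Cldn1, Clec9a, Gcsam, Socs1, H2-Ob, Ciita, Tnfsf4, Arg1, Tnf, Il27, Ccl24, Tlr13, Il7r, Areg and Cldn5 did not pass among the genes named below. The shares given here are the background of each list.

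The 10 largest differences from macrophages held genes of several kinds. Cldn1, which encodes a tight junction protein, came first (8.64 ± 0.83, edgeR adjusted p = 3.92e-07), at 43.1 and 31.1 CPM against 3 UMIs in all macrophages, and was at least 264-fold higher in tumour 1. Itgae stood at 245 and 74.8 CPM in dendritic cells of tumours 1 and 2 and at 0.382 and 0.663 CPM in macrophages (log2 difference 7.89 ± 0.61 SE, edgeR adjusted p = 2.42e-08). Btla, an inhibitory receptor of lymphocytes and dendritic cells, stood at 53.1 and 33.1 CPM against 0.109 and 0.184 CPM (7.78 ± 0.64, adjusted p = 4.72e-08). Both genes were near 0 in macrophages of both tumours. Klrd1, the CD94 chain of a natural killer receptor, stood at 69.7 and 143 CPM against 0.872 and 0.699 CPM (7.33 ± 0.80, edgeR adjusted p = 1.18e-06) and was found in 6 and 43 dendritic cells. Plet1, a surface protein of migratory cells, stood at 262 and 365 CPM against 0.600 and 6.59 CPM (6.91 ± 0.60). Ccl17 (6.79), the interferon-induced Ifitm1 (6.59), Kmo, a kynurenine hydroxylase (6.28), the receptor P2ry10 (6.09) and Ly75, the uptake receptor DEC-205 (5.53), completed the 10.

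Of the pan-dendritic list, 8 of 14 genes were higher and none lower (median log2 difference 2.09, against -0.09 over all genes tested). Beside Btla and Kmo, these were Dpp4, the peptidase CD26 (5.25), Kit, a growth factor receptor (4.56), Traf1 (4.28) and the adhesion molecule gene Amica1 (4.0), with Bcl11a and Csf2rb. Itgax, which encodes CD11c, stood at 73.0 and 65.5 CPM in dendritic cells and at 150 and 80.7 CPM in macrophages, and did not pass (-0.71, adjusted p = 0.662). Bcl11a and Csf2rb did not pass without the block. Of the cDC1 list, 9 of 17 tested genes were higher (median 1.46). Clec9a stood at 166 and 43.7 CPM against 3.43 and 3.79 CPM (4.45 ± 0.54, edgeR adjusted p = 8.74e-06), and Ifi205 (3.85), Cd24a (3.19) and Wdfy4, which cDC1 need to present the antigens of other cells (3.03 ± 0.45, adjusted p = 6.40e-05), were also higher. Gcsam had 0 UMIs in all macrophages and stood at 16.6 and 10.6 CPM in dendritic cells. Irf8 did not pass against macrophages, at 1413 and 690 CPM against 476 and 437 CPM (1.04, adjusted p = 0.0878), although it passed under some alternatives such as a gate of at least 3 dendritic UMIs (1.12), nor did the transcription factor Batf3 (0.83, adjusted p = 0.641).

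Of the cDC2 list, 9 of 16 genes were higher and 2 lower (median 3.41). Ifitm1, Ltb (5.0), Irf4, a transcription factor of cDC2 (4.51), S100a4 (4.16) and Clec10a (4.10) were higher, and Cd7 was found in dendritic cells of tumour 2 alone. The lower genes were the phagocyte receptor Sirpa, at 6.63 and 17.2 CPM against 187 and 80.1 CPM (-3.06), and Itgam, which encodes CD11b, at 6.63 and 4.63 CPM against 110 and 50.9 CPM (-3.92). Both are shared with macrophages. Itgam stands under 2 identifiers in the files, and the other, with few UMIs, did not pass. S100a4 did not pass without the block.

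Of the mature list, 18 of 31 tested genes were higher and 1 lower (median 1.47). Ccl22 stood at 69.7 and 89.3 CPM in dendritic cells and at 1.36 and 6.07 CPM in macrophages (4.47 ± 0.48, edgeR adjusted p = 2.13e-06), with 15 of its 21 UMIs of tumour 1 from 1 cell. Il4i1 stood at 49.8 and 97.3 CPM against 5.18 and 2.32 CPM (4.33 ± 0.50, adjusted p = 2.75e-06), and Traf1 at 149 and 308 CPM against 6.00 and 16.8 CPM (4.28 ± 0.37, adjusted p = 5.62e-08). All of these were higher in dendritic cells in both tumours. Nudt17, a hydrolase, and Cacnb3, a calcium channel subunit, were higher as well (4.65 and 4.14). The gene that was lower was Anxa3, an annexin, at 49.8 and 49.6 CPM against 358 and 269 CPM (-2.69).

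Fscn1, the classical marker of mature dendritic cells, was less exclusive. It stood at 76.3 and 173 CPM in dendritic cells and at 31.0 and 31.6 CPM in macrophages (1.85 ± 0.40, edgeR adjusted p = 0.00390), and 27.1% and 34.0% of macrophages had a UMI of it, against 15% and 38.5% of dendritic cells. The level of tumour 1 rested on 1 cell with 21 of 23 UMIs. It did not pass without the block, and its direction turned (-3.75) when only cells under 5 EGFP UMIs per 10000 were kept, which left 10 and 16 dendritic cells. Il12b was higher over all members (2.21 ± 0.35, edgeR adjusted p = 1.21e-04), at 113 and 189 CPM against 21.8 and 39.0 CPM. Without the cells of several subset genes its difference was -0.62, and it did not pass without the block or below 5 EGFP UMIs per 10000. Cd83, another maturation marker, stood at 381 and 360 CPM against 386 and 217 CPM and did not pass (0.29, adjusted p = 0.748).

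Signals to T cells were mixed. Of 9 tested costimulatory ligands, 4 were higher and none lower (median 1.44): Cd70 (3.57), Tnfsf9 (2.36), Cd40 (1.44 ± 0.37, edgeR adjusted p = 0.0145) and Tnfsf4, the last on 6 UMIs, all of them in tumour 2. Cd86, the ligand of CD28 and CTLA-4, stood at 252 and 421 CPM against 253 and 242 CPM and did not pass (0.29, adjusted p = 0.797). Of 11 inhibitory genes, 3 were higher, Il4i1, Cd200 (2.96) and Pdcd1lg2, the PD-1 ligand PD-L2 (2.87), and 3 lower, the checkpoint molecule Vsir (-2.62), the receptor Tgfbr2 (-1.96) and arginase Arg1, with 0 UMIs in all dendritic cells. Cd274, which encodes PD-L1, stood at 82.9 and 101 CPM against 60.6 and 72 CPM (0.37, adjusted p = 0.724). Without the block, Cd40, Tnfsf9, Tnfsf4, Pdcd1lg2, Tgfbr2 and Arg1 did not pass, and below 5 EGFP UMIs per 10000 Cd40, Cd70, Cd200 and Il4i1 did not.

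Genes of antigen loading split. Of 11 class II loading genes outside the gates, 4 were higher and 2 lower (median 0.69). Dendritic cells had to reach a class II minimum and macrophages did not, so the direction of these genes is given as a description. The part of this gate in their differences was not tested. H2-DMb2, a chain of the peptide editor of class II, stood at 199 and 261 CPM in dendritic cells and at 27.6 and 21.7 CPM in macrophages (3.06 ± 0.43, edgeR adjusted p = 3.97e-05). H2-Ob, a chain of its inhibitor, was higher by 2.62, H2-Eb2 by 4.19 and Ciita, the master regulator of class II, by 1.55. The proteases that cut antigen were lower: Ctss stood at 527 and 934 CPM against 4901 and 4825 CPM (-2.89), and Lgmn at 96.2 and 143 CPM against 1278 and 1252 CPM (-3.53). H2-Ob, H2-Eb2 and Ciita did not pass without the block. Of 14 class I genes only Psmb9, a subunit of the immunoproteasome, was higher (1.06, adjusted p = 0.0481), which it was not without the block, and the list median was -0.26.

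Among the soluble signals tested, more were lower than higher against macrophages. Of 15 chemokine ligands, 2 were higher, Ccl17 and Ccl22, and 7 lower (median -1.65). The lower ones were ligands that draw monocytes and neutrophils: Ccl12 stood at 3.32 and 5.29 CPM against 1078 and 458 CPM (-7.12 ± 0.51, edgeR adjusted p = 3.70e-09), and Ccl7 (-6.17), Ccl3 (-5.98), Ccl4 (-3.38), Ccl6 (-1.86), Cxcl2 (-1.69) and Ccl24 were lower as well. The ligands of Cxcr3, which draw activated T cells, did not pass: Cxcl9 stood at 551 and 1523 CPM against 654 and 1026 CPM (0.09) and Cxcl10 at 925 and 545 CPM against 707 and 323 CPM (0.42, and -0.68 without 7 dendritic cells that carried transcripts of another lineage). Of 13 cytokines, Il12b was higher and 5 were lower, Il1a (-4.54), Il27 (-4.15), Tnf (-3.08), Tnfsf13b (-2.26) and Osm (-2.21). Il1b, at 879 and 1677 CPM against 468 and 824 CPM, did not pass (0.87, adjusted p = 0.246). The cytokine list summed to 1310 and 2190 CPM in dendritic cells and to 1232 and 1464 CPM in macrophages. Among the chemokine receptors outside the gates, Cx3cr1 was lower (-5.41), and Cxcr3, higher by 3.41 at 23.2 and 1.99 CPM against 0.382 and 0.736 CPM, turned to -2.59 after thinning to 2000 UMIs. Ccl24, Tnf, Tnfsf13b, Osm and Cxcr3 did not pass without the block.

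Of 12 migration genes, 6 were higher and none lower (median 1.00), with Itgb7, an integrin chain that pairs with Itgae, at 103 and 63.5 CPM against 3.76 and 9.24 CPM (3.61 ± 0.50), and Fscn1, the prostaglandin receptor Ptger4 (1.56), Actg1 (1.20), Vim (1.17) and Marcksl1 (1.14) after it. Only Itgb7 among these 6 passed without the block. Of 18 sensors of pathogens and nucleic acids none was higher and 3 were lower, Tlr2 (-2.50), Tlr13 (-2.51) and Tlr7, with 0 UMIs in all dendritic cells. Tlr13 did not pass without the block or below 5 EGFP UMIs per 10000. Of 16 interferon-stimulated genes only Socs1 was higher (1.91, adjusted p = 0.0206, not without the block), and the list median was 0.37. None of 12 genes of the G2 and M phases and none of 10 of the S phase passed, and Mki67, a marker of cycling cells, was found in 5 and 20 dendritic cells.

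Macrophage identity genes accompany C1q, which the gates used, so their direction is given as a description. All 11 macrophage genes outside the gate and all 8 microglia genes were lower (medians -5.12 and -5.99). C3ar1, a complement receptor, had 0 UMIs in the dendritic cells of both tumours and was at least 16.6-fold and 53.3-fold lower than in macrophages, taking 3 UMIs as the limit of a count of 0. P2ry12, the purine receptor of microglia, was likewise at least 14.6-fold and 30.7-fold lower, and Cxcl13, Ptgs1 and Cryba4 at least 12.4-fold lower in tumour 1 and 37.8-fold in tumour 2. Of 12 genes of monocytes and monocyte-derived cells, 5 were lower, among them the Fc receptors Fcgr3 (-5.49) and Fcgr1 (-2.83), the coreceptor Cd14 (-3.21) and Csf1r (-4.05), and only Mcemp1 was higher (3.02). Of 7 plasmacytoid genes none was higher and 3 were lower, Siglech (-3.78), Cox6a2 (-3.95) and Lair1 (-3.58). Cd14 and Mcemp1 did not pass without the block.

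**Figure D4:**
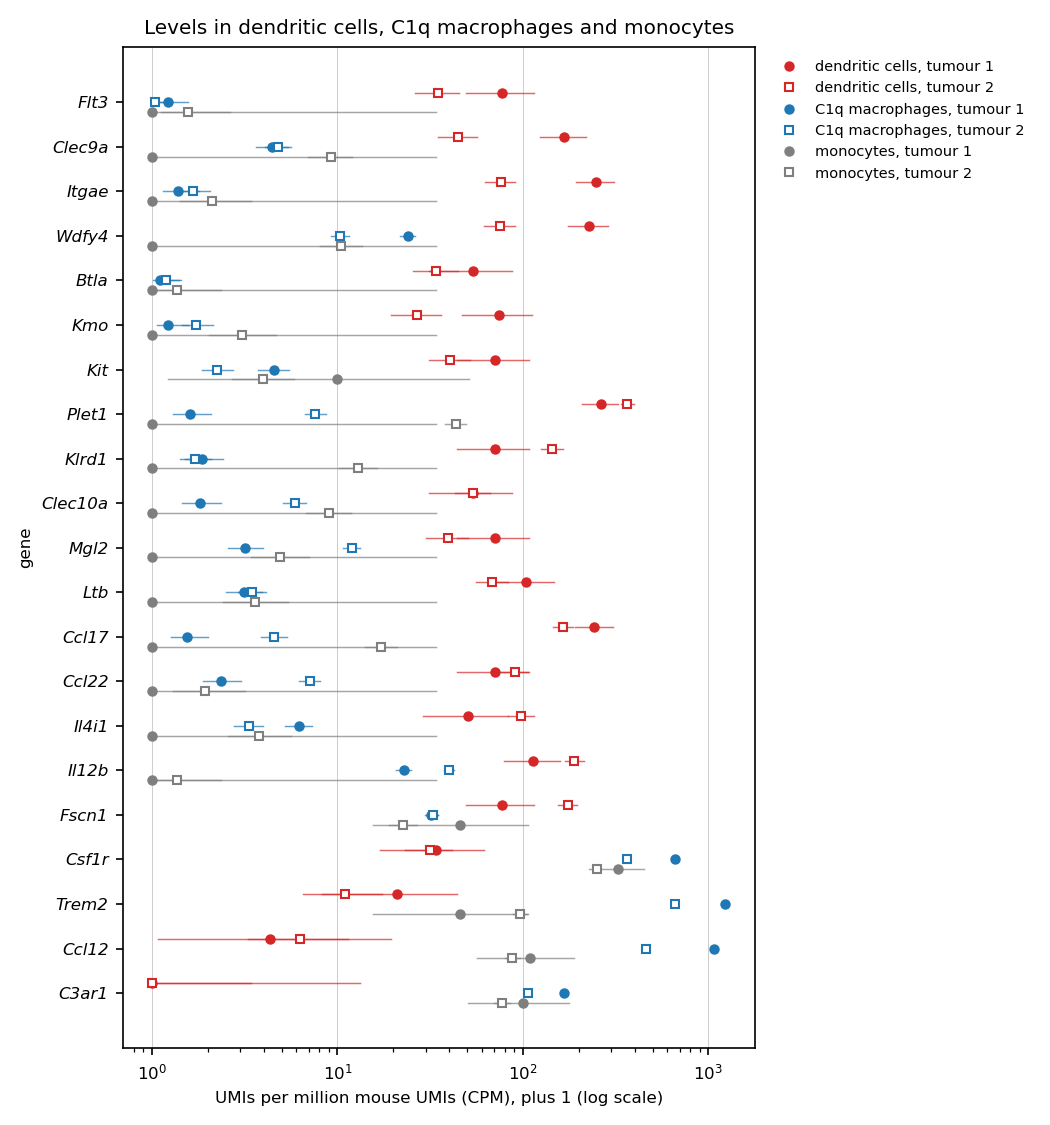
The plot shows 21 genes in dendritic cells (red), C1q macrophages (blue) and monocytes (grey), on a logarithmic axis of CPM plus 1, with filled circles for tumour 1, open squares for tumour 2 and lines for exact 95% Poisson intervals. Dendritic genes such as Itgae and Ccl22 stand apart from macrophages in both tumours, whereas C3ar1 was not detected in dendritic cells, and Flt3 is a gating gene.

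Against monocytes, 250 genes (2.20%) were higher and 327 (2.88%) lower (5.08% in either direction) by the same test. Tumour 1 held only 11 monocytes with 111085 UMIs, against 5358877 UMIs in tumour 2, and without the block the counts were 34 and 28. Among the 10 largest differences upwards were again Itgae, Btla, Cldn1 and Ccl22. Serpinb6b, a protease inhibitor, stood at 176 and 165 CPM in dendritic cells and at 0 and 1.12 CPM in monocytes (7.08 ± 0.59, edgeR adjusted p = 1.31e-07), and was at least 6.51-fold higher in tumour 1. Tbc1d4, a regulator of vesicle traffic, stood at 116 and 101 CPM against 9.0 and 2.05 CPM (5.29 ± 0.53, adjusted p = 1.88e-06). Spint2, a protease inhibitor (5.14), Ppp1r14a (5.55) and Cacna1s (4.82) followed. Il12b stood at 113 and 189 CPM against 2 UMIs in all monocytes and was at least 4.18-fold higher in tumour 1.

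In the pan-dendritic, cDC1, cDC2 and mature lists, more genes were higher than lower against monocytes. Of 7 plasmacytoid genes, 0 were higher and 1 was lower. Of the pan-dendritic list 5 of 14 genes were higher (median 1.08), of the cDC1 list 9 of 17 (1.85), of the cDC2 list 6 of 16 with 3 lower (1.5) and of the mature list 17 of 31 (2.03), with none lower in the other 3 lists. Over all genes tested the median was -0.00497. The sum of the mature list did not have the same direction in both tumours, at 2796 CPM in dendritic cells against 3421 CPM in monocytes of tumour 1 and 3729 against 1491 CPM in tumour 2. Clec9a was higher by 3.22 ± 0.62 (edgeR adjusted p = 0.00254), Irf8 by 1.47 (adjusted p = 0.0195) and Id2, a transcriptional regulator of the dendritic lineage, by 1.80 (adjusted p = 0.00447), and Tlr3, a sensor of double-stranded RNA, by 4.53. Cd83 was higher by 2.06 (adjusted p = 6.02e-04) and Il4i1 by 4.77. S100a4, at 614 and 747 CPM against 432 and 1075 CPM, did not pass (0.14, adjusted p = 0.969), nor did Cd40 (0.15) or Pdcd1lg2 (0.73). Of these genes, Clec9a, Irf8, Id2, Tlr3 and Cd83 did not pass without the block, and Clec9a and Cldn1 did not by DESeq2.

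H2-Oa, the other chain of the class II inhibitor, stood at 192 and 152 CPM in dendritic cells and at 9.0 and 14.0 CPM in monocytes (3.41 ± 0.44, edgeR adjusted p = 4.34e-05), and H2-DMb2 (3.55) and H2-Ob (4.39) were higher as well, with Ctss (-1.81) and Lgmn (-1.75) lower. Monocytes had no class II minimum either, so these directions are a description as well. Of 15 chemokine ligands 2 were higher and 7 lower, and of 13 cytokines 1 was higher and 3 lower, among them the interleukin 1 antagonist Il1rn, at 33.2 and 37.7 CPM against 243 and 261 CPM (-2.72). Of 12 monocyte genes 8 were lower (median -2.54), led by Fcgr3 (-4.70) and F13a1 (-4.50). Of the cell cycle lists, 3 of 12 genes of the G2 and M phases and 3 of 10 of the S phase were higher, with Top2a, a topoisomerase of dividing cells, at 226 and 84.7 CPM against 45.0 and 31.9 CPM (1.94, adjusted p = 0.0109) and Mcm5 (2.04, adjusted p = 0.0130). None of these 6 cell cycle genes passed without the block. The protease inhibitor Slpi (-7.98) and the matrix protein Thbs1, at 3.32 and 1.32 CPM against 315 and 386 CPM (-7.93 ± 0.79, edgeR adjusted p = 1.88e-06), were the lowest genes with UMIs in dendritic cells. Without the block, H2-DMb2, Ctss, Lgmn, Il1rn, F13a1 and Slpi did not pass either. Haemoglobin genes were lower (4 of 4), which they were not when cells with 5% or more haemoglobin UMIs, 1 monocyte among them, were left out.

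Markers of T, natural killer, B and mast cells were low in dendritic cells, whereas neutrophil, innate lymphoid and glioma markers were found in many of them. T-cell markers outside the gate summed to 6.63 and 18.5 CPM in dendritic cells, natural killer markers to 6.63 and 18.5 CPM, B-cell markers to 13.3 and 11.2 CPM and mast cell markers to 0 and 1.32 CPM. Neutrophil markers summed to 76.3 and 709 CPM (67.4 and 251 CPM in macrophages) and were found in 9 and 64 dendritic cells, innate lymphoid markers to 26.5 and 192 CPM (16.5 and 28.7 CPM) in 1 and 42 cells, and glioma and neural markers to 793 and 377 CPM (668 and 261 CPM) in 20 and 73 cells. The macrophage list summed to 978 and 557 CPM against 39764 and 18504 CPM in macrophages. Of 6 T-cell markers Cd8a, which cDC1 of the mouse carry as well, was higher than in macrophages (5.30), of 6 natural killer markers Klre1, which turned to -1.50 after thinning to 2000 UMIs, and of 6 innate lymphoid markers Il7r (2.20) and Areg (4.49), of which 92 of 137 UMIs came from 1 cell. Of 3 neutrophil markers Il1r2, a decoy receptor for interleukin 1, was higher (2.81 ± 0.42), in 7 and 59 dendritic cells, and gave 1049 of the 1072 neutrophil UMIs of tumour 2, with Csf3r lower (-3.89). Il1r2 and Il7r did not pass without the block. None of 10 glioma and neural markers passed. The part of these markers in the differences above was not tested.

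By at least 10 UMIs of the glioma list or of the endothelial list, 1 dendritic cell of tumour 1 and 6 of tumour 2 carried transcripts of another lineage. All other members had at most 8 glioma and 2 endothelial UMIs. The cell of tumour 1 had 156 of the 239 glioma UMIs and the 4 luciferase UMIs of its dendritic cells, and belonged to the Ccr7 subset. In tumour 2, 1 cell without a subset gene and with 113470 UMIs held 312 of 326 endothelial UMIs, which carried the call of the endothelial marker Cldn5 (4.34). Without these 7 cells the difference of Cldn5 was -1.90, 488 and 543 genes were higher and lower than in macrophages, and the Xcr1 and Ccr7 shares were 52.6% and 21.1% in tumour 1 and 19.4% and 54.2% in tumour 2. By rank of their doublet scores, 0 and 7 members would be removed, and 5 of the 6 cells of tumour 2 were among them.

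Dendritic cells of tumour 1 and tumour 2 were compared as 1 library with 1 library, without a test. Of 729 genes with enough UMIs to be judged, 9 (1.23%) were 4-fold or more higher in tumour 1 with at least 50 UMIs there, and of 3169, 101 (3.19%) were so in tumour 2, where the larger total of UMIs let more genes reach 50. When the cells that carried transcripts of another lineage were left out, these counts fell to 6 of 653 genes and 70 of 2559. Interferon-inducible genes went both ways. Higher in tumour 1 were Mndal, at 338 CPM (exact 95% Poisson interval 276 to 411) against 47.6 CPM (37.3 to 60.0), Ifi203, at 269 (213 to 334) against 58.9 CPM (47.3 to 72.5), and Ifi205, at 537 (458 to 627) against 122 CPM (105 to 141). Isg15 was instead higher in tumour 2, at 172 CPM (129 to 226) against 949 CPM (900.4 to 999.3) in 77 of 78 cells, with 98.4 and 766 CPM in macrophages, and Ifi202b was at 0 against 58.2 CPM (46.7 to 71.7). Macrophages had the same direction for Mndal (82.5 and 37.3 CPM), Ifi203 (66.9 and 30.8 CPM) and Ifi202b (0 and 54.6 CPM). Ifi205 went the other way there, at 15.4 and 19.4 CPM. In T cells Mndal stood at 232 and 42.6 CPM, Ifi203 at 231 and 35.1 CPM and Ifi205 at 0.554 and 0.676 CPM. In dendritic cells the list of 16 interferon-stimulated genes summed to 3065 and 2944 CPM. Cbfa2t3, a transcriptional corepressor, stood at 212 CPM (163 to 271) in 17 of 20 cells against 45.7 CPM (35.5 to 57.8), while macrophages had 3.05 and 6.52 CPM. Dock10, a guanine nucleotide exchange factor, stood at 226 against 55.6 CPM. Ifit1, Ifit3 and Gap43 owed most of their UMIs to 1 cell each, 72 of 83, 92 of 101 and 44 of 58. The list also held Xcr1, a gating gene, at 362 against 81.4 CPM. Of the 9 genes, 7 had the same direction in macrophages, 1 of them by 4-fold or more. The share with the same direction over all 729 genes was not computed.

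Most of what was higher in dendritic cells of tumour 2 was higher in its macrophages too. Of the 101 genes, 80 had the same direction there and 27 of these by 4-fold or more, and 31 owed most of their UMIs to 1 dendritic cell. The shares with the same direction over all genes with enough UMIs were not computed, so these counts have no background beside them. Gm10709 stood at 3.32 CPM (0.0840 to 18.5) against 404 CPM (372 to 437) and in macrophages at 0.818 and 465 CPM. Hmox1, which encodes the haem-degrading enzyme, stood at 9.95 CPM (2.05 to 29.1) against 533 CPM (497 to 571) and in macrophages at 193 and 1035 CPM. Slc7a11, a cystine transporter, stood at 9.95 CPM (2.05 to 29.1) against 224 CPM (200 to 249) and in macrophages at 45.0 and 221 CPM. These were shared by both kinds of cell. Timd4, a receptor for phosphatidylserine on dying cells, was different in that macrophages had 7.09 and 7.21 CPM, while dendritic cells had 3.32 CPM (0.0840 to 18.5) in tumour 1 and 93.3 CPM (78.5 to 110) in 28 cells of tumour 2. In tumour 2 it stood at 365 CPM in Cd209a cells, 126 CPM in Ccr7 cells and 25.4 CPM in Xcr1 cells. The lectin Clec4n stood at 3.32 against 128 CPM (110 to 147), in 31 cells of tumour 2, and in macrophages at 31.3 and 118 CPM.

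Among the 10 largest folds towards tumour 2, Ubd, Igfbp7, Egfl7, Lcn2 and Ctla2a each rested on 1 cell, with 856 of 858, 450 of 468, 135 of 138, 342 of 357 and 215 of 221 UMIs. The part of the smaller Xcr1 share of tumour 2 in these differences was not tested.

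**Figure D5:**
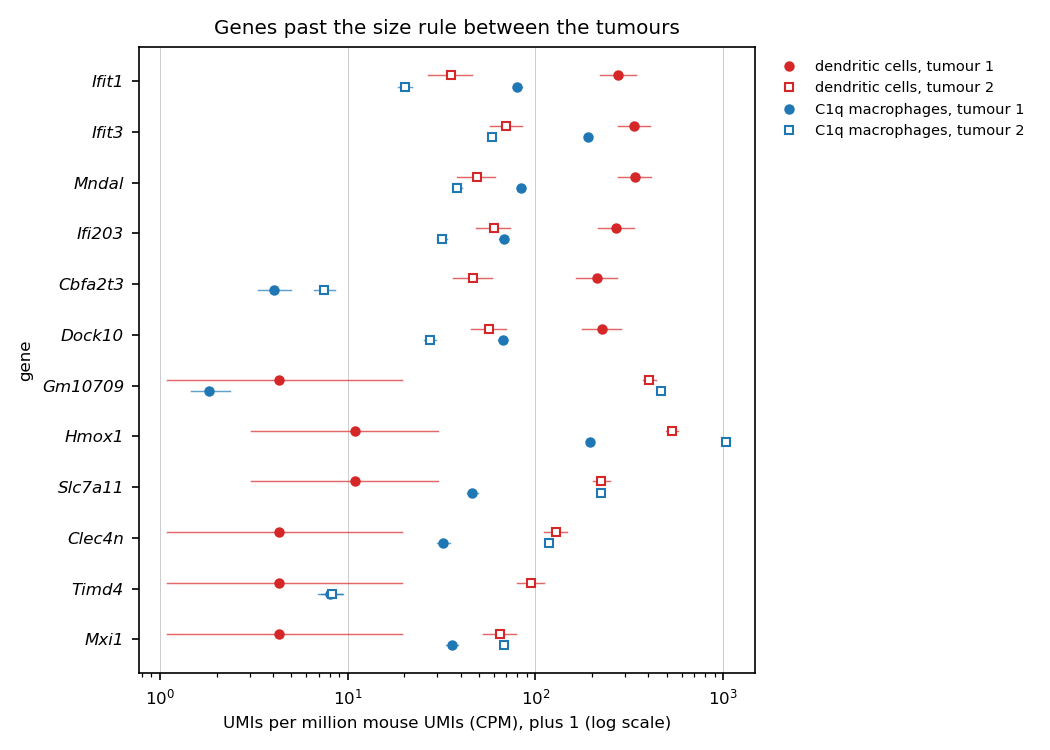
The plot shows 12 genes in dendritic cells and in C1q macrophages of tumour 1 (filled circles) and tumour 2 (open squares), on a logarithmic axis of CPM plus 1 with exact 95% Poisson intervals. Cbfa2t3 and Timd4 differ between tumours in dendritic cells (212 against 45.7 and 3.32 against 93.3 CPM) with macrophages below 8 CPM in both tumours, and Gm10709, Hmox1 and Slc7a11 differ in both kinds of cell.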

How the data were processed

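The authors sorted viable cells from 2 dissociated tumours, prepared 10x Genomics 3′ libraries and aligned reads with Cell Ranger 4.0.0 to mm10 with transgenes added, per the labels and the study's methods. The deposited values are raw UMI counts per gene and called barcode, without normalization; Seurat is also named, and none of its output was used. The study names DoubletFinder for the prediction of doublets.

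Here, barcodes with at least 500 genes and under 20% mitochondrial UMIs were kept (12854 of 14302 and 15555 of 18596, from libraries of 282961884 and 295366782 UMIs). Dendritic cells, C1q macrophages, monocytes, T cells and natural killer cells were gated by the levels given in the results, with T cells needing 2 UMIs of Cd3 genes and natural killer cells 2 of Ncr1 and Klrb1c. The members and gene lists were chosen with earlier results of these data known. Counts were summed per class and tumour (10 sums), filtered with filterByExpr, scaled by TMM and tested with edgeR 4.0.16 (R 4.3.3), with the tumour as a block, on 11386 genes with 4 residual degrees of freedom. P-values were adjusted by Benjamini-Hochberg. The block rests on the shared animal; deviations of the classes correlated by 0.0510 to 0.611 over 10 pairs, 8 of them over 0.1. On simulated counts of 200 changed genes among 11386, 43.5% were recovered against macrophages and 38.5% against monocytes, with 1 false call each. All other genes were simulated with the same mean in every class and tumour, and with the fitted spread. The simulation therefore cannot gauge false calls that arise from tumour differences or from single cells. Genes of 0 UMIs in a class are given against a limit of 3 UMIs per library. CPM are UMIs per 1000000 mouse UMIs of a class, and intervals cover counting error only.

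Up to 6 members of a list were named by the size of their difference, with others where a role needed them, and the 10 largest differences each way that passed, held in both tumours and reached 20 CPM in the higher class of both. Subset genes named by 4-fold, with at least 5 and 20 UMIs in the higher subset of tumours 1 and 2, and other genes named outside the rule were chosen after their values were seen. Scrublet in scanpy 1.11.5 marked 0 and 139 barcodes by its automatic threshold, so barcodes were ranked by score and 1322 and 1936 removed (0.8% per 1000 barcodes) as an alternative only; in the main analysis no doublets were removed. Further alternatives were DESeq2 1.42.0 and its size factors, no filter, no block, stricter gates, thinning and leaving out each tumour. Cxcl11, Ighm, Trac and Trbc2 were not in the files used.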

Additional observations from a re-analysis of the deposited data

Results flagged for a closer look

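The transgene tdTomato, the reporter of the host mice, was not used in any comparison of the results and gave UMIs in dendritic cells of tumour 1. At least 1 UMI was found in 5 of 20 cells (25.0%, exact 95% binomial interval 8.66 to 49.1). Of the Xcr1 cells 4 of 10 and of the Ccr7 cells 1 of 5 had such a UMI, and the 5 cells held 5 UMIs in all. In the same library, 18.3% of C1q macrophages, 18.1% of T cells and 5.75% of cells above the EGFP gate had a tdTomato UMI. In tumour 2 the share was 2 of 78 dendritic cells (2.56%, 0.312 to 8.96), with 0.668% of macrophages, 0.647% of T cells and 0.965% of cells above the EGFP gate. The shares of macrophages and T cells lie within the interval of the dendritic cells in both tumours. The host of each library is not known, and the share in dendritic cells of tumour 1 was not tested against that in its other cells. No UMI of ZsGreen1, which was listed for tumour 1 alone, or of DsRed-Express and Cas9, which were listed for tumour 2 alone, was found in dendritic cells.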

How the results depend on the processing

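Of the alternatives tried, 2 moved the counts of called genes by over 1.5 times. Without the replicate block, 295 genes (143 higher, 152 lower) were called against macrophages and 62 (34 and 28) against monocytes, and 33 of 106 and 66 of 95 called genes of the lists and of the largest differences lost their call. Thinned to 2000 UMIs, with 5530 genes tested, the counts were 378 (167 and 211) and 296 (111 and 185). DESeq2 called 715 and 453 genes, and 1224 and 854 were called with no filter on low counts. The share of dendritic cells fell to 0.0778% and 0.103% at under 5 EGFP UMIs per 10000, the Xcr1 share of tumour 2 was 10.3% after thinning, and 43 genes (1 and 42) differed between tumours by 8-fold. Leaving out each tumour in turn, 856 to 905 of the genes called against macrophages and 521 to 577 of those against monocytes kept their direction, with no test, and the subset differences were 0.98 to 2.93 (Xcr1 to Cd209a), 1.32 to 2.89 (Ccr7 to Cd209a) and 2.22 to 3.31 (Ccr7 to Xcr1). The subset comparisons have no test, so DESeq2, other size factors, no filter and the block were not run for them.

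Log2 differences that turned against macrophages were those of Areg (4.77 without tumour 1, -2.46 without tumour 2), Cldn5 (-8.42 below 5 EGFP UMIs per 10000, -1.90 without the 7 cells of other-lineage UMIs, 5.44 without tumour 1, -5.15 without tumour 2), Cxcr3 (-2.59) and Klre1 (-1.50) after thinning, Fscn1 (-3.75) below 5 EGFP UMIs per 10000 and Il12b (-0.62) without cells of several subset genes. Against monocytes, Cldn5 (-6.62), Esam (-1.22) and Fscn1 (-2.08) turned below 5 EGFP UMIs per 10000, Cldn5 (-1.37) without the 7 cells, Hbb-bt (0.58) at under 5% haemoglobin, and, without tumour 1 and without tumour 2, H2-M2 (5.05 and -4.26), Ms4a7 (-4.45 and 1.02), Tlr4 (-2.95 and 3.39) and Vsir (-2.42 and 0.057). Of the named genes that did not pass, Cxcl10 turned against macrophages (-1.32 below 5 EGFP UMIs per 10000, -0.68 without the 7 cells), as did Cd83 (0.62 and -0.12), Cd86 (0.69 and -0.10) and Cxcl9 (0.46 and -0.35) without tumour 1 and tumour 2. Against monocytes, S100a4 turned without the block (-0.16) and Cd40 without doublet-scored barcodes (-0.054), and without tumour 1 and tumour 2 they were -0.60 and 1.0 (S100a4) and -0.076 and 0.38 (Cd40). For Cldn5, Il12b and Areg the cells that held most UMIs were left out by construction, and for the others the cause was not tested. The alternatives without haemoglobin-rich cells, cells of several subset genes, cells of other-lineage UMIs and natural killer cells were chosen after seeing the data. With 20 dendritic cells and 11 monocytes, tumour 1 limits the depth of every comparison.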
